A study of Mus musculus with 12 samples.

Results

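Asynchronously growing mouse B lymphoma cells whose RPL12 carries the S38D substitution were compared with cells carrying wild-type (WT) RPL12, using ribosome footprints over coding sequence. The comparison holds 4 libraries of the 12 in the series, chosen by their genotype and state labels, with 2 asynchronous S38D libraries and 2 asynchronous WT libraries. The other 8 libraries are asynchronous S38A cells and mitotic S38D, S38A and WT cells, with 2 libraries each. Mitotic cells had been held in nocodazole at 100 ng/mL for 8 hr and released for 10 min. In S38D the serine at position 38 is replaced by aspartate and in S38A by alanine. All groups descend from the line 19PP, a murine B cell lymphoma that arose in a Rag2-/-γC-/- mouse given marrow with Cγ1-Cre and Myc/P110*flSTOP, through its reporter-negative subline 19DN. Cells were harvested in cycloheximide, which halts elongating ribosomes, at 100 µg/ml. The labels do not state how the substitutions were made, how many clones represent a genotype or whether replicates are independent cultures. The p-values therefore rest on library-to-library spread that could be purely technical.

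RPL12, also called uL11, sits at the base of the stalk of the large ribosomal subunit, next to the ribosomal RNA where the translational GTPases bind. The stalk recruits these factors and stimulates their GTP hydrolysis during elongation and termination. Aspartate carries a negative charge and is commonly used to imitate a phosphorylated serine, whereas alanine cannot be phosphorylated. A footprint count reflects both the amount of an mRNA and how many ribosomes occupy it, and no mRNA measurement was used here to separate them.

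The files identify genes only by versioned Ensembl ID. The reference table held 0 of these IDs, so no gene was named and no function is given to any single gene. The labelled B cell type and the level of the Rpl12 mRNA were not checked against marker genes for the same reason.

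Asynchronous S38D libraries held 505500 and 465584 coding reads, against 258354 and 302808 in asynchronous WT libraries, so depth differed between the groups. In mitotic cells the order was the other way, with 274071 and 298198 coding reads in S38D and 300205 and 393141 in WT libraries. With 2 libraries a group in each state, the exact permutation test within states cannot give a p below 0.0556, so library measures were not judged by a test. The part of this depth gap in the called genes was not tested. Over 2894 genes with at least 20 reads in each of the 4 libraries, the median absolute log2 difference was 0.209 between the S38D replicates and 0.217 between the WT replicates. It was 0.245 to 0.284 between an S38D and a WT library. Genes more than 2-fold apart numbered 46 to 83 between genotypes, 8 between the S38D replicates and 19 between the WT replicates. Among these well-covered genes the median difference between genotypes was therefore slightly above that between replicates.

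Of the 6692 genes tested, 223 were called (3.33%, adjusted p under 0.05, edgeR quasi-likelihood test), of which 99 were higher in S38D (1.48%) and 124 were lower (1.85%). An unadjusted p under 0.05 was found for 1015 genes, 558 higher and 457 lower, so genes that were not called are not shown to be alike in the 2 genotypes. The median log2 fold change was 0.81 among the higher and -1.05 among the lower genes, and 32 of the higher against 71 of the lower genes differed at least 2-fold. Over all genes tested the median log2 fold change was 0.02. The libraries of the 2 genotypes did not overlap for 222 of the 223 called genes, where 41.3% of all genes tested had libraries that did not overlap. Levels are reads per 1000000 (CPM) after scaling by the trimmed mean of M values (TMM), so each change is relative to the other genes. The split depended on that scaling, since library totals gave 76 higher and 160 lower genes. Without WT asynchronous replicate 2, 104 genes were called, 39 higher and 65 lower.

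How small a change could be called varied with abundance. Genes were split into 4 equal groups of 1673 by their mean CPM over all 12 libraries. The most abundant group, from 145.7 CPM upwards, held 126 of the called genes, and the least abundant group, below 38.2 CPM, held 28. The smallest log2 change called was 0.39 in the most abundant group and 1.37 in the least abundant, where the median standard error (SE) was 0.50 against 0.19. Smaller changes in genes of low abundance were therefore not detectable at this depth. The mean over 12 libraries is itself set in part by the change, so the higher and the lower genes were not compared by it. In the asynchronous S38D libraries the mean log2 CPM was 8.25 and 8.28 over the 99 higher genes, against 7.44 and 7.30 in WT libraries. Over the 124 lower genes it was 6.60 and 6.49 in S38D libraries, against 7.67 and 7.72 in WT libraries.

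In the 4 libraries compared, the 223 called genes carried 7.04% to 7.57% of tested reads, and they were 3.33% of genes tested. The 99 higher genes took 4.62% and 4.67% of tested reads in asynchronous S38D libraries, 4.69% and 4.51% in S38A libraries, and 3.02% and 2.96% in WT libraries. The 124 lower genes took 2.50% and 2.36% in S38D, 3.03% and 2.98% in S38A, and 4.40% and 4.61% in WT libraries. These genes were chosen on the S38D and WT libraries, so the shares there describe the choice. The S38A libraries were in the same fit, where they enter the filter and the estimate of spread, and they are set against the same WT libraries. Against asynchronous WT cells, asynchronous S38A cells had the same direction as S38D for 93 of the 99 higher genes (51 called). Among all tested genes above 0 in S38D it was 2349 of 3518 (345 called). For the lower genes it was 113 of 124 (66 called, 3 called the other way), against 2138 of 3174 below 0 (199 called). With S38D and WT asynchronous libraries alone 70 genes were called, and with the asynchronous S38A libraries added 132.

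The largest fall was that of ENSMUSG00000045826.8. It had 2 and 1 reads in the asynchronous S38D libraries, at 4.10 and 2.22 CPM, against 22 and 23 reads in the WT libraries, at 86.0 and 76.3 CPM. Both S38D libraries lay far below both WT libraries. The log2 fold change was -4.52 ± 0.58 (SE, adjusted p = 4.38e-08, edgeR), and the read ratio of S38D to WT was 0.0385 with a 95% interval of 0.00766 to 0.120 that covers counting error only. With so few reads the SE, which restates the test, is narrower than the counting interval implies. ENSMUSG00000045826.8 had 0 reads in either asynchronous S38A library. In mitotic cells it had 0 and 1 reads in S38D libraries and 28 and 35 reads in WT libraries, and the gene was lower there too (log2 fold change -5.41 ± 0.71, SE, adjusted p = 2.29e-07, edgeR). No library of either mutant exceeded 4.10 CPM, and no WT library was below 76.3 CPM.

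ENSMUSG00000030144.4 had the next largest fall, and it rests on few reads. Asynchronous S38D libraries had 1 and 0 reads of it, against 2 and 11 reads in WT libraries, which are 7.82 and 36.5 CPM. The WT replicates were far apart, and the lower of them held 1 read more than the higher S38D library. The log2 fold change was -4.05 ± 1.09 (SE, adjusted p = 0.0199, edgeR), and the read ratio was 0.0445 with a counting interval of 0.00105 to 0.296. Without WT asynchronous replicate 2 the gene did not pass (log2 fold change -2.54, adjusted p = 0.647, edgeR), nor without S38D asynchronous replicate 1 (-6.00, adjusted p = 0.0529) or replicate 2 (-3.27, adjusted p = 0.168). Mitotic libraries had 0 and 2 reads in S38D against 16 and 11 in WT, and there it was lower as well (log2 fold change -3.32 ± 0.88, SE, adjusted p = 0.026, edgeR). In the fits of asynchronous libraries alone the gene was removed by the filter, so it was tested only with the mitotic libraries present. Its mitotic fall is therefore not a separate check. Asynchronous S38A libraries had 0 and 1 reads of it, also lower than WT (log2 fold change -3.71 ± 1.14, SE, adjusted p = 0.025, edgeR).

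ENSMUSG00000096210.1 had the largest rise. It had 18 and 15 reads in asynchronous S38D libraries, at 36.9 and 33.2 CPM, against 1 read in each WT library, at 3.91 and 3.32 CPM. The log2 fold change was 3.17 ± 0.78 (SE, adjusted p = 0.0087, edgeR), and the read ratio was 9.53 with a counting interval of 2.44 to 82.0. It did not pass without WT asynchronous replicate 1 or 2 (adjusted p = 0.0585 and 0.145, edgeR), while leaving out any 1 of the 4 libraries gave log2 fold changes of 3.05 to 3.26. In mitotic cells S38D libraries had 68.7 and 98.2 CPM, against 3.35 and 10.4 CPM in WT libraries, and the gene was higher by 3.46 ± 0.56 (SE, adjusted p = 1.53e-05, edgeR). S38A libraries held 2.61 and 12.9 CPM in asynchronous cells and 9.34 and 26.5 CPM in mitotic cells. Against asynchronous S38A cells, asynchronous S38D cells were higher by 2.23 ± 0.62 (SE, adjusted p = 0.0142, edgeR).

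ENSMUSG00000024968.13 had the next largest rise, with 22 reads in each asynchronous S38D library, at 45.1 and 48.7 CPM, against 2 and 3 reads in WT libraries, at 7.82 and 9.95 CPM. The log2 fold change was 2.34 ± 0.58 (SE, adjusted p = 0.00866, edgeR). It too failed to pass without WT asynchronous replicate 1 (log2 fold change 2.18, adjusted p = 0.0803, edgeR) or replicate 2 (2.52, adjusted p = 0.104). The mitotic libraries did not show this rise, with S38D at 19.1 and 21.0 CPM against WT at 43.6 and 20.7 CPM (log2 fold change -0.61 ± 0.55, SE, adjusted p = 0.74, edgeR). The difference between the states did not pass the test for this gene (2.95 ± 0.81, SE, adjusted p = 0.209, edgeR).

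**Figure D1:**
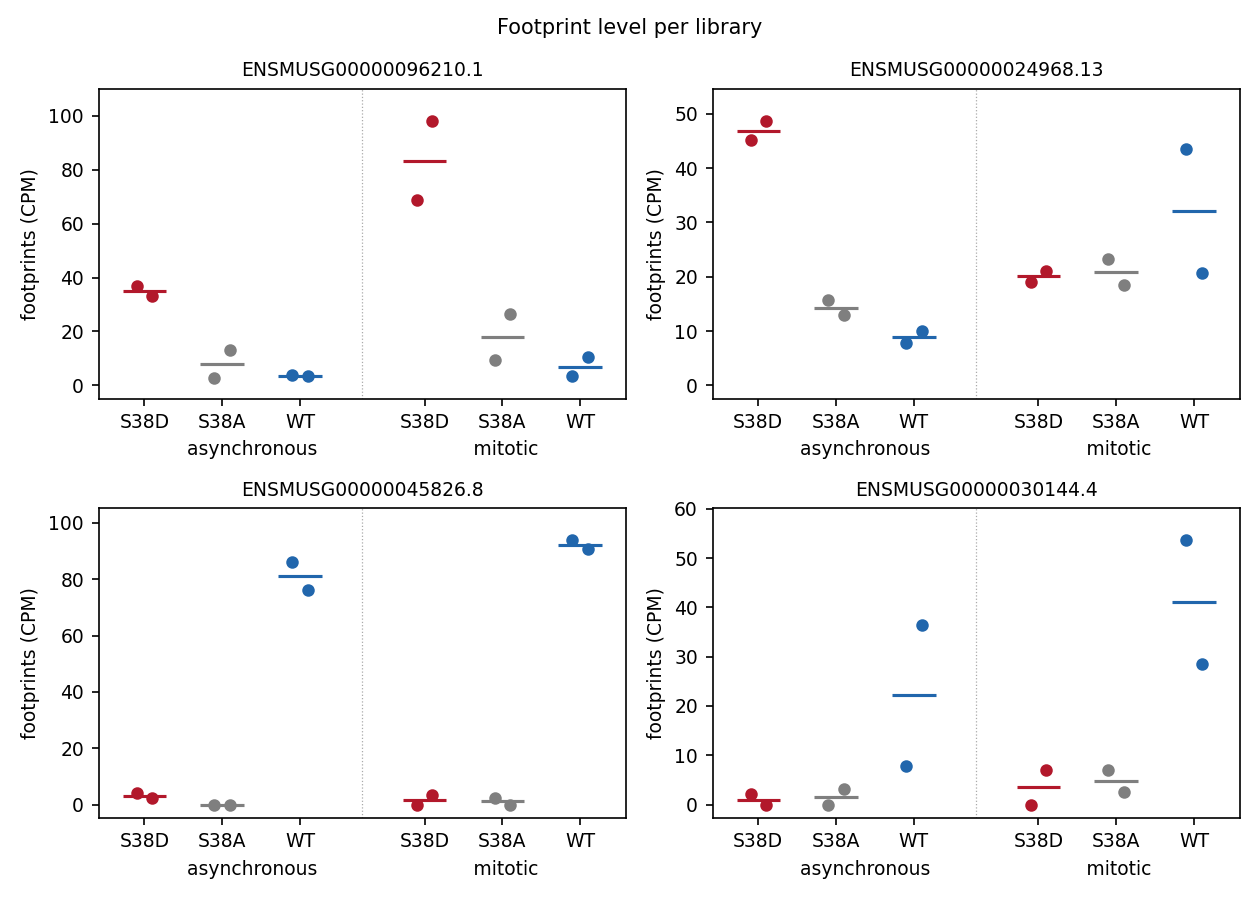
Footprint level in CPM (vertical axis, linear) of the 2 genes with the largest rises (upper row) and the 2 with the largest falls (lower row), with 1 point per library, a bar at the mean of 2 libraries, and S38D, S38A and WT groups of each state along the horizontal axis. ENSMUSG00000045826.8 is at 76.3 CPM or more in each WT library and at 4.10 CPM or less in each mutant library.

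Behind these, the next 13 genes on each side spanned log2 fold changes of 1.32 to 2.20 and of -3.87 to -2.11. The 13 higher genes averaged 41.6 to 452 CPM in asynchronous S38D libraries and 11.1 to 179 CPM in WT libraries. The 13 lower genes averaged 2.13 to 86.0 CPM in S38D libraries and 24.1 to 636 CPM in WT libraries. In the mitotic libraries 10 of these 13 higher genes and 12 of these 13 lower genes had the same direction. Among all tested genes above and below 0 in asynchronous cells, 58.7% and 60.8% did. Asynchronous S38A cells differed from the same WT libraries in the same direction for 12 of the 13 higher and 11 of the 13 lower genes. For all tested genes above and below 0 in S38D it was 2349 of 3518 and 2138 of 3174.

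The mitotic S38D and WT libraries share no library with the asynchronous comparison and were used to see whether the called genes differed in the same direction in other libraries of the same genotypes. They were in the same fit, where they enter the filter and the estimate of spread behind the calls. They are therefore not a fully separate check. With the 6 asynchronous libraries alone, 132 genes were called, all among the 223. Of the 99 higher genes, 82 were also above 0 in mitotic cells (82.8%), where 58.7% of all tested genes above 0 in asynchronous cells were. Of the 124 lower genes, 117 were also below 0 (94.4%), against 60.8% of all tested genes below 0 in asynchronous cells. The sizes were smaller in mitotic cells, with a median log2 fold change of 0.29 for the higher and -0.63 for the lower genes. The genes had been chosen on the asynchronous libraries, and the part of that choice in the smaller sizes was not tested. Both mitotic S38D libraries lay above both WT libraries for 63 of the 99 higher genes, against 978 of 3518 tested genes above 0 in asynchronous cells. They lay below both for 93 of the 124 lower genes, against 928 of 3174 tested genes below 0. Over all genes tested, whatever their sign, the shares were 21.5% above and 21.8% below.

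In mitotic cells 122 genes were called (1.82% of genes tested). The genes called in the same direction in both states were 15 higher ones, which are 15.2% of the asynchronous and 31.9% of the mitotic calls, and 33 lower ones, which are 26.6% and 44%. No gene was called in opposite directions in the 2 states. In the mitotic libraries the unadjusted p was under 0.05 in the same direction for 36 of the 99 higher and 70 of the 124 lower genes, and in the opposite direction for 1 and 0. Among all tested genes it was so in the same direction for 309 of 3518 above 0 and 310 of 3174 below 0, and in the opposite direction for 104 and 75.

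**Figure D2:**
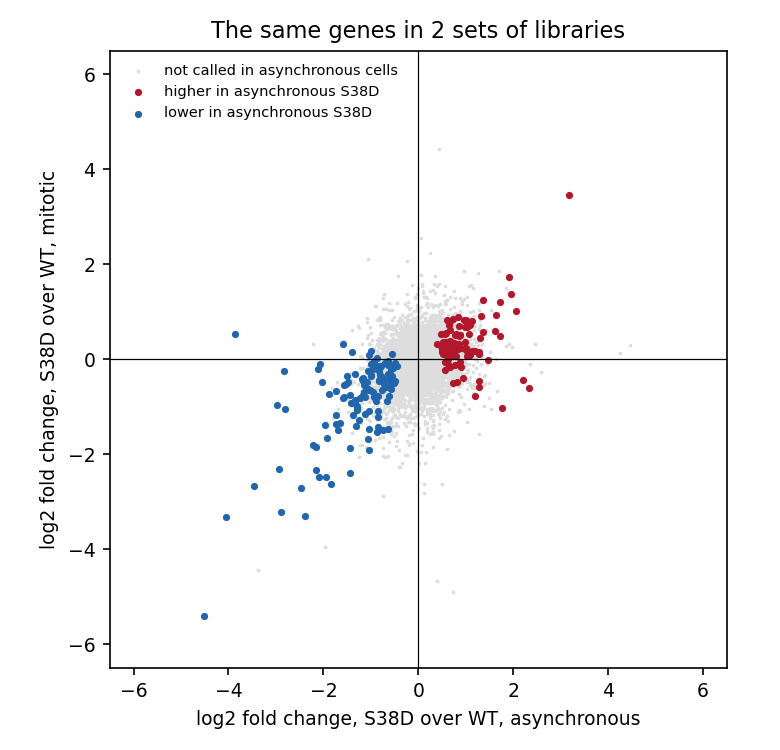
Log2 fold change of S38D over WT in mitotic cells (vertical axis) against that in asynchronous cells (horizontal axis), with 1 point per gene tested. Of the genes called in asynchronous cells, 82 of 99 higher ones lie above 0 and 117 of 124 lower ones lie below 0 on the vertical axis.

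Whether the difference between S38D and WT depended on the state was tested directly. The test called 4 genes of 6692 (0.0598%), each with a higher S38D over WT log2 fold change in asynchronous than in mitotic cells, and 439 genes had an unadjusted p under 0.05. DESeq2 called 2. Of the 223 genes called in asynchronous cells 1 was among the 4, so the other 222 were not shown to be particular to asynchronous cells.

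That gene, ENSMUSG00000031004.8, had 1018 and 820 CPM in asynchronous S38D libraries, against 328 and 428 CPM in WT libraries (log2 fold change 1.27 ± 0.16, SE, adjusted p = 4.38e-08, edgeR). Mitotic S38D libraries had 389 and 463 CPM, against 577 and 591 CPM in mitotic WT libraries (log2 fold change -0.45 ± 0.17, SE, adjusted p = 0.205, edgeR). S38D thus lay above WT in both asynchronous libraries and below WT in both mitotic ones. The difference between the states was 1.72 ± 0.24 (SE, adjusted p = 2.62e-06, edgeR). Asynchronous S38A libraries held 3373 and 2184 CPM, so that S38D was below S38A (log2 fold change -1.60 ± 0.14, SE, adjusted p = 1.12e-13, edgeR).

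The other 3 genes of this test were not called in asynchronous cells, with log2 fold changes of -0.19 to 0.04, and were lower in mitotic S38D than in mitotic WT cells, with changes of -1.81 to -1.03. ENSMUSG00000006517.5 had the largest difference among them. Asynchronous S38D libraries had 207 and 148 CPM, against 227 and 182 CPM in WT libraries (log2 fold change -0.19 ± 0.21, SE, adjusted p = 0.75, edgeR). Mitotic S38D libraries had 95.4 and 80.7 CPM, against 298 and 316 CPM in WT libraries (log2 fold change -1.81 ± 0.23, SE, adjusted p = 1.43e-07, edgeR). The difference between the states was 1.62 ± 0.32 (SE, adjusted p = 0.00551, edgeR), and it failed to pass when any of 5 libraries was left out. Those adjusted p-values (edgeR) were 0.101 without S38D asynchronous replicate 1, 0.131 without WT asynchronous replicate 2, 0.071 and 0.423 without S38D mitotic replicates 1 and 2, and 0.168 without WT mitotic replicate 2. The differences in these fits were 1.36 to 1.73. DESeq2 gave 1.55 with an adjusted p of 0.348. Mitotic S38A libraries held 121 and 127 CPM of this gene, also below both mitotic WT libraries.

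**Figure D3:**
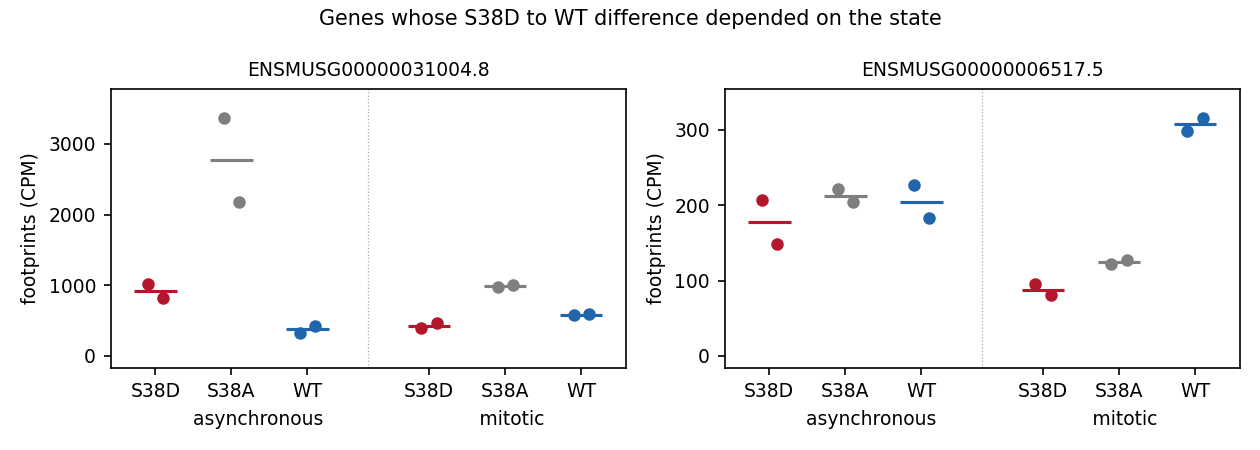
Footprint level in CPM (vertical axis, linear) per library of the 2 genes with the largest difference between the states, with a bar at the mean of 2 libraries and groups along the horizontal axis. ENSMUSG00000031004.8 has both asynchronous S38D libraries above both asynchronous WT libraries. Its mitotic S38D libraries lie below both mitotic WT libraries, a fall that was not called. ENSMUSG00000006517.5 is lower in S38D in mitotic cells.

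Genes that mark cell cycle phases were described through gene IDs taken from marker pairs shipped with the scran package, a choice made after results of these data were seen. Few genes of the 3 lists passed the test. Of 67 tested genes that mark G2 and M phase, 2 were higher in S38D, 0 were lower and 65 did not pass, with a median log2 fold change of 0.17. The 74 tested S phase genes held 2 higher genes and 1 lower gene, and their median was 0.13. Among 81 tested G1 genes 4 passed as higher and 1 as lower, with a median of 0.09. Without S38D asynchronous replicate 2 the medians were 0.08 for G2 and M, 0.07 for S and -0.05 for G1 genes. The median of all genes tested was 0.02. The share called was 2.99%, 4.05% and 6.17% in these lists, against 3.33% of all genes tested.

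The lists were also summed in each library. G2 and M phase genes summed to 14138 and 14139 CPM in asynchronous S38D libraries, to 15915 and 15621 CPM in S38A libraries, and to 12533 and 12280 CPM in WT libraries. The S38D libraries lay between those of S38A and WT, with no overlap. Mitotic libraries had lower sums of these genes in each genotype. They were 10661 and 11485 CPM in S38D, 12172 and 12572 CPM in S38A, and 10135 and 10404 CPM in WT libraries. The sum thus did not rise with the mitotic label. In asynchronous cells S phase genes summed to 15786 and 15598 CPM in S38D libraries, against 14125 and 14818 CPM in WT libraries, without overlap. For G1 genes the sums were 13346 and 14781 CPM in S38D libraries, against 13218 and 12735 CPM in WT libraries, also without overlap. The S38D replicates of this list were further apart than the WT replicates. Asynchronous S38A libraries summed to 17827 and 17116 CPM for S and to 14582 and 13978 CPM for G1 genes. Among all single genes tested, 41.3% had asynchronous S38D and WT libraries that did not overlap. The sums were not tested, and the part of cell cycle composition in the called genes was not tested.

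**Figure D4:**
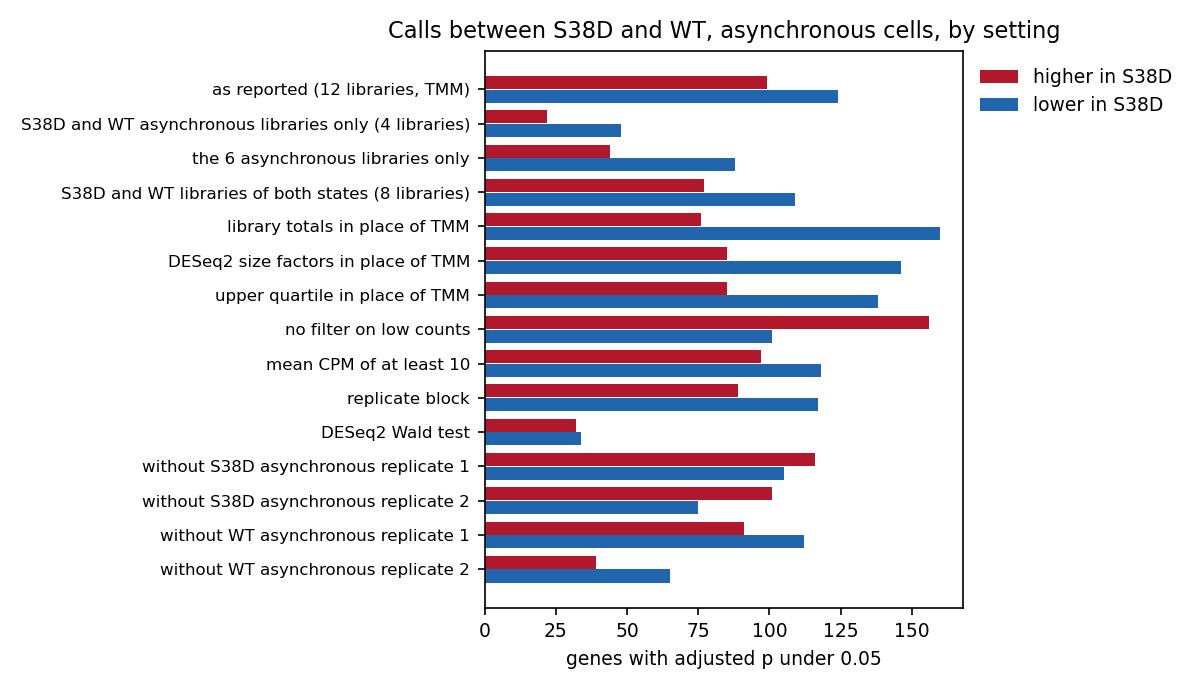
Number of genes called higher (upper bar) and lower (lower bar) in asynchronous S38D against WT cells, with adjusted p under 0.05 (horizontal axis), in the reported fit and under each alternative (vertical axis). The counts range from 22 to 156 higher and from 34 to 160 lower genes.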

How the data were processed

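Per the labels, ribosome-protected fragments were size-selected and sequenced. For each library the authors deposited raw counts (whole numbers) for 22520 gene IDs. A further 5 summary rows name no gene and entered neither library sizes nor tests. In the 4 libraries compared, reads outside features made up 18.0 to 23.0% and ambiguous reads 0.615 to 0.677% of those aligned once. The summary row for alignments that were not unique entered no gene. It made up 65.3 to 68.3% of that row plus the reads aligned once. Whether a read enters that row only once was not checked. Per the submitters' processing notes the tools included STAR 2.5.3a and HTSeq 0.9.1, with bcl2fastq 2.16.0.10, DESeq2 1.18.1 and Bowtie2 2.3.2, and the build was mm10. Their roles, use of strand and any removal of duplicates are not given in the sources used here. Overlapping genes and near-identical copies may share reads, and intervals cover counting error only.

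All 12 libraries, in 6 groups, were fitted in 1 model (R 4.3.3, edgeR 4.0.16 quasi-likelihood F test, TMM, filterByExpr with a minimum count of 10), which kept 6692 of the 11680 IDs with a read. The threshold was a Benjamini-Hochberg adjusted p of 0.05. Each SE was derived as the absolute log2 fold change divided by √F. It restates the test and, for genes with few reads, can be smaller than counting error alone.

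Genes were described by a rule reduced to IDs, the 2 largest log2 changes in each direction among called genes with a mean of at least 10 CPM and libraries that do not overlap, and the 2 largest differences between states. Phase lists hold genes that on balance come first in the scran 1.30.0 pairs of 1 phase and second in the others. The comparison, rule and lists were chosen with earlier results of these data known. Gene lists chosen by symbol could not be applied. Alternatives were other scalings, filters, subsets of libraries, a replicate block, DESeq2 1.42.0 and leaving out each library.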

Additional observations from a re-analysis of the deposited data

Results flagged for a closer look

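The difference between S38D and WT depended on the state for ENSMUSG00000031004.8, by 1.72 ± 0.24 on the log2 scale (SE, asynchronous minus mitotic, adjusted p = 2.62e-06, edgeR quasi-likelihood test). S38D was above WT in both asynchronous libraries and below WT in both mitotic libraries. The mitotic fall itself was not called (log2 fold change -0.45 ± 0.17, SE, adjusted p = 0.205, edgeR). Of all genes tested, 21.8% had both mitotic S38D libraries below both WT libraries. The same test found a difference of 1.62 ± 0.32 for ENSMUSG00000006517.5 (SE, adjusted p = 0.00551, edgeR), whose levels overlapped between the genotypes in asynchronous cells and were lower in S38D in both mitotic libraries. Mitotic S38A libraries, at 121 and 127 CPM, also lay below both mitotic WT libraries. That second difference did not pass in 5 of the 8 fits that left out 1 library (adjusted p up to 0.423, edgeR, differences of 1.36 to 1.73) or with DESeq2 (1.55, adjusted p = 0.348).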

How the results depend on the processing

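In asynchronous cells, 4 of 14 alternatives moved the 223 calls by over 1.5 times. These were 70 calls with S38D and WT asynchronous libraries alone, 132 with the 6 asynchronous libraries, 66 with DESeq2, which gave no adjusted p for 5060 genes, and 104 without WT asynchronous replicate 2. Leaving out 1 library gave 104 to 221 calls, of which 77 to 145 were among the 223. Leaving out 1 asynchronous library also changed the set of genes that passed the filter, to 6956 to 7340 genes tested in place of 6692. Those counts therefore reflect both the library left out and the wider set tested. No called gene changed sign under any alternative that tested it. Higher genes were 44.4% of the calls, against 32.2% with library totals (76 higher and 160 lower) and 60.7% without a filter (156 and 101). Without S38D asynchronous replicate 2, 75 genes were lower. ENSMUSG00000045826.8 passed in each of the 13 alternatives that gave it an adjusted p. In mitotic cells the count of 122 was 58 with DESeq2 and 39 to 60 when 1 library was left out, lowest without S38D mitotic replicate 2. The difference between states had 4 calls, 7 without a filter, 2 with DESeq2, and 1 to 14 when 1 library was left out, highest without WT asynchronous replicate 1. The labels do not say that replicate numbers mark shared cultures, and deviations of same-numbered libraries correlated at -0.282 to 0.121 across groups. The lowest value, -0.282, was that of the asynchronous S38D and WT groups compared here, over 2894 genes. With the replicate number as a block 206 genes were called, all among the 223. The lists chosen by symbol and the fit without ribosomal protein genes were not run, since IDs were not named. Depth limits calls among genes of low abundance, where 1 read is 2.05 to 3.91 CPM.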
